A study of Mus musculus with 6 samples.

Results

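The genes described here are 7 genes of intestinal iron absorption and iron storage, Slc11a2, Slc40a1, Cybrd1, Heph, Tfrc, Fth1 and Ftl1, out of 54532 genes counted in the intestine of newborn mice. They were taken by gene name. Each name had 1 row in the tables, and all 7 passed the low-count filter and were among the 15847 genes tested. The material was intestine from newborn mice of the inbred strain C57BL/6, treated for 5 days with NECA (N-ethylcarboxamidoadenosine, an adenosine analogue that activates adenosine receptors) or with DMSO, the solvent used as vehicle, in 3 libraries of each. The series title places the experiment in a study of adenosine in necrotizing enterocolitis. The labels do not say whether the mice or the tissue were treated, at which dose, or which stretch of bowel was taken, and all groups lack a statement on how many animals were used. A p-value here thus rests on library-to-library spread, which may be technical in part.

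Dietary non-haem iron is absorbed mainly in the duodenum, the first part of the small bowel. Cybrd1 (duodenal cytochrome b) reduces ferric iron at the apical membrane of the enterocyte, and Slc11a2 (DMT1) carries the ferrous ion into the cell. Iron that is not passed on is held in ferritin, a hollow shell built of heavy chains (Fth1), which oxidise iron, and light chains (Ftl1), which help it to mineralise. Slc40a1 (ferroportin) exports iron across the basolateral membrane, and Heph (hephaestin), a copper-containing ferroxidase, oxidises it for loading onto transferrin. Tfrc, the transferrin receptor, brings transferrin-bound iron into cells from the blood side and is high in dividing cells and red cell precursors. The messages of several of these genes carry an iron-responsive element, a hairpin bound by the iron regulatory proteins Aco1 (IRP1) and Ireb2 (IRP2) when iron is low. Binding in the 5′ UTR blocks translation, and binding in the 3′ UTR of Tfrc slows decay of the message, so only the 3′ kind acts directly on the amount of RNA.

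These hairpins are shown because they divide the 7 genes by the kind of iron control that an RNA measurement can and cannot see. The untranslated regions of GENCODE M21 transcripts (GRCm38) were searched on the transcript strand for a C, 5 bases, the loop CAGTGN of 6 bases, and 5 bases that pair with the first 5, with G to U pairs allowed. The capitals mark the loop. A match was found in 4 of the 7 genes, against 0.731% of 21901 genes with protein-coding transcripts. Several of these genes were known beforehand to carry the hairpin, so this comparison is not a test of enrichment. Slc11a2 was found only when 1 further base of the second arm was left unpaired. A search for this form alone, all-paired matches not counted, matched 1.29% of genes. Neither search found a match in Cybrd1 or Heph, which says only that these letters are not in their annotated untranslated regions.
Fth1, 5′ UTR, exon 1, chr19:9982732-9982760, plus strand: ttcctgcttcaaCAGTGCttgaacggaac
Ftl1, 5′ UTR, exon 1, chr7:45459779-45459807, minus strand: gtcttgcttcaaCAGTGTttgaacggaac
Slc40a1, 5′ UTR, exon 1, chr1:45925465-45925493, minus strand: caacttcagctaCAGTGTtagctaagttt
Slc11a2, 3′ UTR, exon 16, chr15:100395152-100395181, minus strand: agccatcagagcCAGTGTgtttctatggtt
Tfrc, 3′ UTR, exon 19, chr16:32631219-32631247, plus strand: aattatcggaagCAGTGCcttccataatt
Tfrc, 3′ UTR, exon 19, chr16:32631598-32631626, plus strand: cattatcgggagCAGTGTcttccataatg
Tfrc, 3′ UTR, exon 19, chr16:32631663-32631691, plus strand: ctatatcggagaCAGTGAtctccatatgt
Tfrc, 3′ UTR, exon 19, chr16:32631710-32631738, plus strand: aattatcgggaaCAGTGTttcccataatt
The ferritin hairpins share the same paired arms. The Slc11a2 hairpin was in 1 annotated protein-coding transcript, and the deposited counts are per gene, so transcripts of Slc11a2 with and without it cannot be told apart here.

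On the length-scaled FPKM values of the deposited tables (scaled by gene length and sequencing depth), which allow genes to be compared with each other, ferritin stood far above the rest. Fth1 averaged 2050 ± 747 FPKM in NECA and 2689 ± 448 FPKM in DMSO (SD, n = 3 each), and Ftl1 1104 ± 313 and 1171 ± 195 FPKM. By mean FPKM over the 6 libraries Fth1 was number 11 and Ftl1 number 24 of the 15847 tested genes. Slc40a1 averaged 68.5 ± 31.1 FPKM in NECA and 101 ± 6.77 FPKM in DMSO, and Slc11a2 58.7 ± 32.5 and 78.0 ± 17.3 FPKM. Heph followed at 34.9 ± 1.49 FPKM in NECA and 35.7 ± 8.80 FPKM in DMSO. Tfrc averaged 19.3 ± 8.25 and 16.9 ± 1.84 FPKM, and Cybrd1 13.9 ± 11.8 and 17.9 ± 2.27 FPKM. In DMSO the lowest Fth1 value, 2417 FPKM, was above the highest Ftl1 value, 1367 FPKM. Slc40a1 and Slc11a2 were neighbours whose DMSO values overlapped, as were Tfrc and Cybrd1.

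NECA was then compared with DMSO. None of the 7 genes passed the test: edgeR's quasi-likelihood test with Benjamini-Hochberg adjustment over all 15847 genes called 0 genes in either direction (0%), the smallest adjusted p in the whole table being 0.589. At an unadjusted p under 0.05, 0 of the 7 genes stood against 868 of all genes (5.48%), while DESeq2 called 9 of 27044 genes (0.0333%), none of them among the 7. Of the 7 genes 6 had a negative log2 fold change and Tfrc a positive one, with a median of -0.39, against -0.0080 over all genes tested. In 5 of the 7 genes the lowest level was that of NECA replicate 2, and Tfrc was highest there. Across all tested genes NECA replicate 2 was the lowest library in 27.9% and the highest in 30.1%. Without that library the median of the 7 was -0.05, with 5 genes lower and 2 higher, and edgeR called 0 of 16121 genes (885, or 5.49%, at an unadjusted p under 0.05).

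The libraries held 15531996 to 18065078 counts, and the 7 genes took 0.332% to 0.622% of them, so that the smallest count of any of the 7 genes, 267, was well above the low-count limit. NECA replicate 2 stood apart from the other 5 libraries, with a median correlation to the others of 0.944 across genes, against 0.971 to 0.986 for the rest (genes are not independent replicates). The fold change of each of the 7 genes is therefore given with and without it. It also had the smallest share of mitochondrial counts, with 3.63%, 1.31% and 2.80% in NECA, against 4.49%, 8.39% and 3.61% in DMSO, so DMSO replicate 2 was highest. The part of that share in the gene levels was not tested. Levels by library are TMM-normalised CPM, counts scaled to a common library size, which compare libraries for 1 gene but not genes with each other. In bulk tissue, fewer cells of a type and less RNA per cell cannot be told apart.

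**Figure D1:**
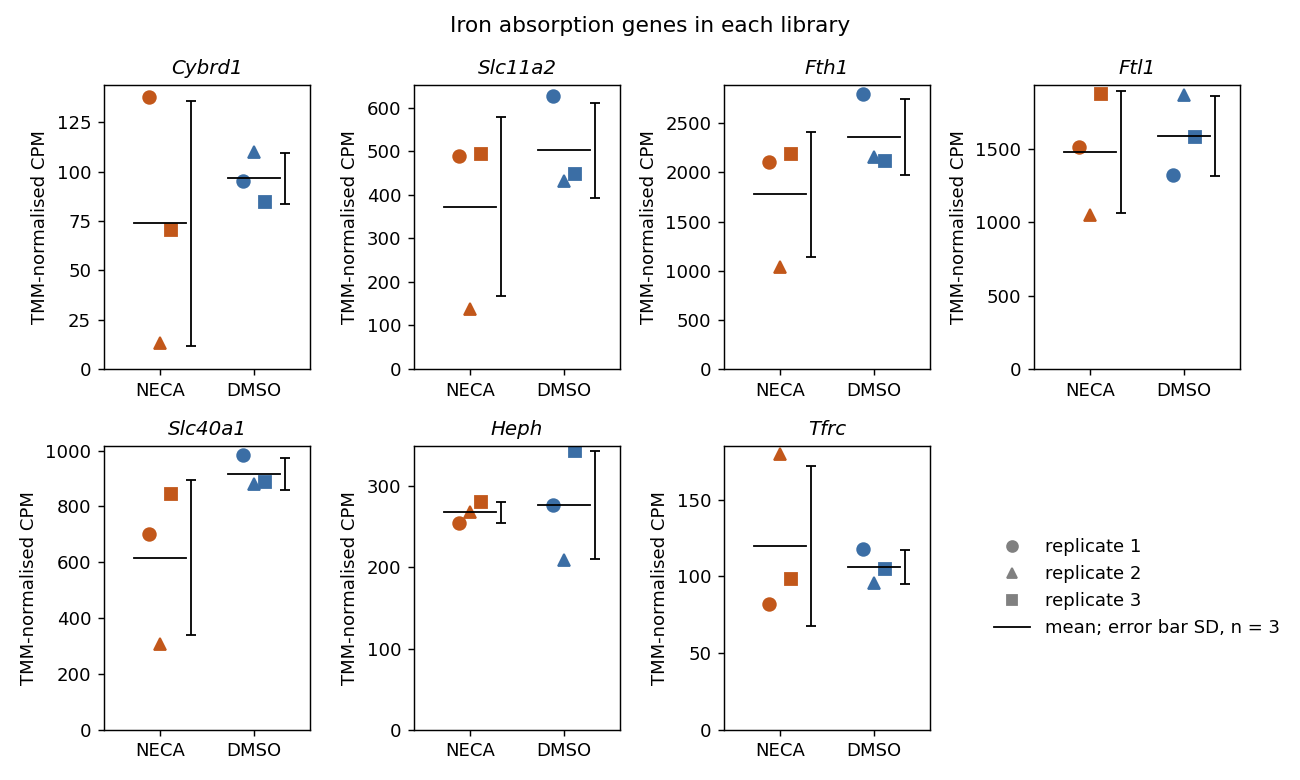
Level of each gene (TMM-normalised CPM, linear axis from 0) in the 3 NECA libraries and the 3 DMSO libraries, with the symbol giving the replicate number, the line the mean and the bar the SD. NECA replicate 2 (triangle, left) is the lowest point for Cybrd1, Slc11a2, Fth1, Ftl1 and Slc40a1, the highest for Tfrc and within the others for Heph.

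Apical uptake was represented by Cybrd1 (ENSMUSG00000027015, chromosome 2, 71117923 to 71142926, plus strand, GRCm38) and Slc11a2 (ENSMUSG00000023030, chromosome 15, 100387898 to 100425072, minus strand). Cybrd1 was at 138, 13.3 and 70.4 CPM in NECA replicates 1 to 3, against 95.2, 110 and 84.5 CPM in DMSO replicates 1 to 3. The NECA libraries thus held both the highest and the 2 lowest levels, and the groups overlapped. The log2 fold change was -0.39 (SE 0.65, 95% interval -1.91 to 1.13, adjusted p = 0.863 with edgeR), and without NECA replicate 2 it was 0.11 (SE 0.27, adjusted p = 0.948 with edgeR), of the opposite sign. In counts, NECA replicate 2 had 267 Cybrd1 fragments and the other libraries 1227 to 2130. Its level was 0.140 of the median of the other 5, and only 1.31% of tested genes had a smaller ratio.

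Slc11a2 was at 488, 137 and 494 CPM in the NECA libraries, against 628, 431 and 448 CPM in the DMSO libraries. NECA replicates 1 and 3 lay inside the DMSO range and NECA replicate 2 lay below every other library, at 0.280 of their median. The log2 fold change was -0.43 (SE 0.45, 95% interval -1.48 to 0.63, adjusted p = 0.783 with edgeR) and -0.03 (SE 0.20, adjusted p = 0.984 with edgeR) without that library. The interval without it, -0.48 to 0.43, still allows differences of some size in either direction.

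Storage was represented by Fth1 (ENSMUSG00000024661, chromosome 19, 9980598 to 9985098, plus strand) and Ftl1 (ENSMUSG00000050708, chromosome 7, 45457944 to 45459884, minus strand). Fth1 was at 2104, 1041 and 2184 CPM in the NECA libraries, against 2802, 2160 and 2112 CPM in the DMSO libraries. NECA replicate 2 was lowest by far, NECA replicate 3 lay inside the DMSO range, and NECA replicate 1 lay just below its lower end. The log2 fold change was -0.41 (SE 0.33, 95% interval -1.18 to 0.37, adjusted p = 0.747 with edgeR), and -0.13 (SE 0.19, adjusted p = 0.916 with edgeR) without NECA replicate 2. Ftl1 was at 1515, 1049 and 1879 CPM in NECA, against 1321, 1869 and 1582 CPM in DMSO. NECA replicate 2 was again the lowest library and NECA replicate 3 the highest, with a log2 fold change of -0.10 (SE 0.28, adjusted p = 0.920 with edgeR) and 0.10 (SE 0.20, adjusted p = 0.935 with edgeR) without NECA replicate 2.

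The RNA levels of Fth1, for the chain with ferroxidase activity, and of Ftl1, for the light chain, did not keep a fixed proportion across libraries. Fth1 over Ftl1, as a ratio of FPKM, was 2.15, 1.54 and 1.80 in NECA, against 3.28, 1.79 and 2.07 in DMSO. DMSO replicate 1 was the highest and NECA replicate 2 the lowest, and the other 4 libraries lay between 1.79 and 2.15. On the log2 scale of counts the ratio averaged 0.23 ± 0.24 in NECA and 0.57 ± 0.46 in DMSO (SD, n = 3 each), a difference of -0.34 (exact permutation test, two-sided p = 0.50, where 3 against 3 libraries cannot give less than 0.10). Leaving out NECA replicate 2 gave a difference of -0.22, and leaving out DMSO replicate 1 gave -0.09. Ferritin genes have processed copies in the genome, and reads can be split between them. The Ftl1-ps1 row, whose longest transcript is 99.56% identical to that of Ftl1 over 910 aligned bases, held 347 to 518 counts per library, or 1.63% of the Ftl1 counts. The annotation lists Ftl1-ps1 as protein-coding despite its name. Whether its reads came from Ftl1 cannot be told here, so the size of any error in the Ftl1 level is not known. Adding the rows named as pseudogenes left the ratio difference at -0.34.

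Export was represented by Slc40a1 (ENSMUSG00000025993, chromosome 1, 45908068 to 45926523, minus strand) and Heph (ENSMUSG00000031209, chromosome X, 96455359 to 96574485, plus strand). Slc40a1 was at 700, 306 and 844 CPM in NECA, against 983, 879 and 886 CPM in DMSO. It was the 1 gene of the 7 in which the groups did not overlap, all NECA libraries lying below all DMSO libraries, as was so of 1135 tested genes (7.16%) in that direction, so the share of members, 1 of 7, is not a result by itself. The log2 fold change was -0.57 (SE 0.36, 95% interval -1.40 to 0.26, adjusted p = 0.738 with edgeR). Without NECA replicate 2 it was -0.24 (SE 0.16, adjusted p = 0.848 with edgeR), and NECA replicate 3 was then 844 CPM against a lowest DMSO value of 879 CPM.

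Heph did not share the low level of NECA replicate 2. It was at 255, 269 and 280 CPM in NECA, against 277, 210 and 343 CPM in DMSO, the NECA libraries lying within the wider DMSO range. Its log2 fold change was -0.05 (SE 0.21, 95% interval -0.53 to 0.44, adjusted p = 0.957 with edgeR) and stayed at -0.05 without NECA replicate 2. Heph over Slc40a1, as a ratio of FPKM, was therefore 0.427, 1.03 and 0.390 in NECA, against 0.331, 0.280 and 0.455 in DMSO, with NECA replicate 2 far above the rest.

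Tfrc (ENSMUSG00000022797, chromosome 16, 32608920 to 32632794, plus strand), the receptor for transferrin-bound iron, went the other way in NECA replicate 2. It was at 82.0, 180 and 98.2 CPM in NECA, against 118, 95.8 and 104 CPM in DMSO. NECA replicate 2 was the highest library, at 1.83 times the median of the other 5, and NECA replicate 1 the lowest. The log2 fold change was 0.18 (SE 0.29, 95% interval -0.49 to 0.85, adjusted p = 0.856 with edgeR), and -0.23 (SE 0.15, adjusted p = 0.848 with edgeR) without NECA replicate 2, with the sign reversed. By FPKM, Tfrc amounted to 0.546%, 2.41% and 0.629% of Fth1 in NECA, against 0.587%, 0.621% and 0.693% in DMSO. These ratios between members were chosen after the values were seen.

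**Figure D2:**
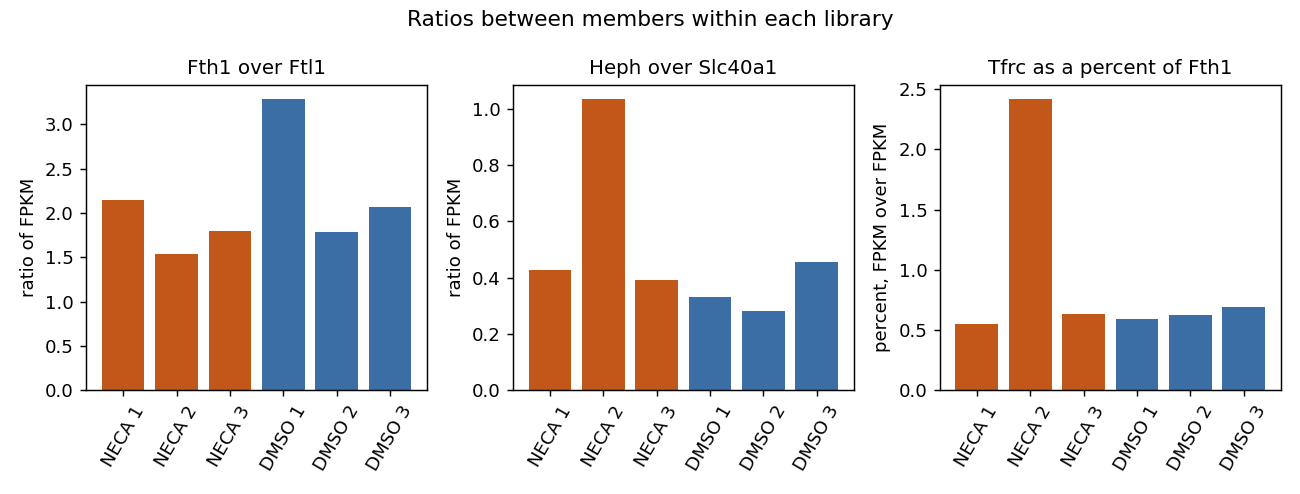
Ratios between 2 members within each library, from the deposited FPKM values, NECA libraries left and DMSO libraries right, with 1 bar per library and axes from 0. Heph over Slc40a1 and Tfrc as a percent of Fth1 are highest in NECA replicate 2 (1.03 and 2.41%), and Fth1 over Ftl1 is highest in DMSO replicate 1 (3.28).

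**Figure D3:**
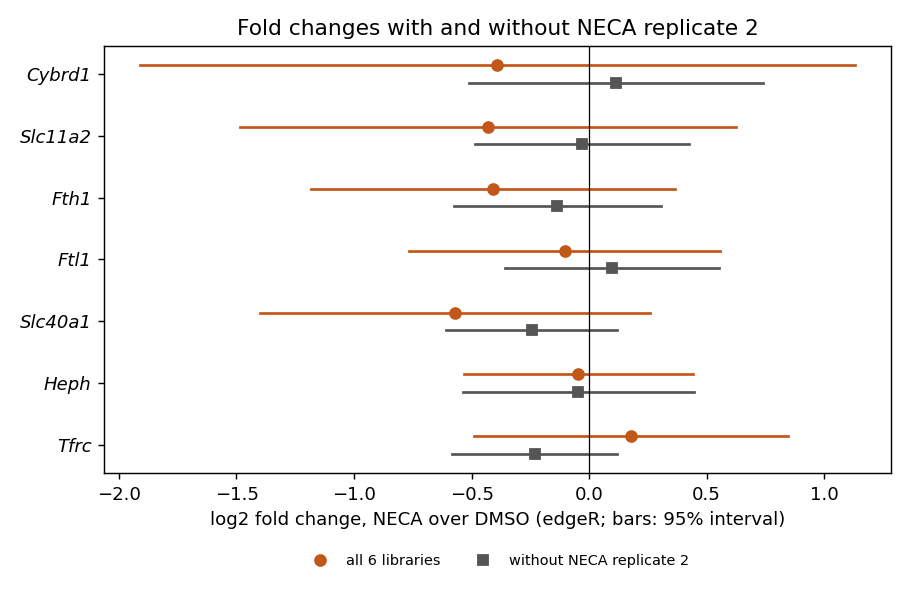
Log2 fold change of NECA over DMSO for each gene with its 95% interval from edgeR, with all 6 libraries (circles) and without NECA replicate 2 (squares). Every interval spans 0, the intervals of Cybrd1, Slc11a2, Slc40a1, Fth1, Ftl1 and Tfrc narrow without that library, and the estimates of Cybrd1, Ftl1 and Tfrc change sign.

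Markers of position along the bowel moved with these levels. The summed level of 8 genes of the proximal small bowel was 6769, 333 and 6117 CPM in NECA, against 6507, 7160 and 5316 CPM in DMSO, all 8 genes being lowest in NECA replicate 2. That sum is mostly Rbp2 and Fabp1, and the low-level genes of the list set the groups apart more widely. All 8 had a negative log2 fold change, with a median of -0.83, and the groups did not overlap in 3, Pdx1, Ada and Gkn3 (7.16% of all genes tested were so). With NECA replicate 2 left out, 7 of 8 were lower, with a median of -0.49. Ada, a deaminase that breaks down adenosine, was at 17.3, 10.9 and 24.7 CPM in NECA, against 66.0, 58.6 and 43.5 CPM in DMSO. Every NECA library lay well below every DMSO library, and the log2 fold change was -1.67 (SE 0.31, adjusted p = 0.738 with edgeR), or -1.41 (SE 0.23) without NECA replicate 2. Pdx1, a homeobox factor of duodenal and pancreatic development, had 1.87, 0.199 and 0.632 CPM in NECA, against 15.7, 10.9 and 2.31 CPM in DMSO (-3.46, SE 0.88, adjusted p = 0.738 with edgeR). Rbp2, Fabp1 and Gata4 of the same list were low in NECA replicate 2 alone. The vitamin A carrier Rbp2 was at 240 CPM there, against 2948 to 4369 CPM in the other libraries. Fabp1, a fatty acid binding protein, was at 23.1 CPM in NECA replicate 2, against 2096 to 2719 CPM elsewhere, and Gata4, a transcription factor of the proximal small bowel, at 30.4 CPM against 135 to 162 CPM. The summed level of 9 ileal genes was 1047, 3587 and 1567 CPM in NECA, against 790, 871 and 1391 CPM in DMSO. The largest part of the sum in NECA replicate 2 was Fabp6, at 1913 CPM. Of the 9 genes, 7 were highest in NECA replicate 2. Cubn, at 202 CPM there against 166 to 204 CPM elsewhere, and Amn, at 504 against 335 to 664 CPM, were not. All 9 had a positive log2 fold change, with a median of 1.497, against 7 of 9 and a median of 0.38 without NECA replicate 2. NECA replicate 3 and DMSO replicate 3 also had the ileal bile acid binding protein Fabp6, at 150 and 135 CPM. It was at 0.201 CPM or less in NECA replicate 1 and DMSO replicates 1 and 2. Slc11a2 was at 494 and 448 CPM in the former libraries, against 431 to 628 CPM in the latter. Slc40a1 was at 844 and 886 CPM, against 700 to 983 CPM. Cybrd1 was lower in the former, at 70.4 and 84.5 CPM, against 95.2 to 138 CPM in the latter. With a position score from both lists as a covariate, the fold change of Slc11a2 was 0.19 (SE 0.35), of Cybrd1 0.40 (SE 0.36), of Slc40a1 -0.14 (SE 0.33) and of Tfrc -0.38 (SE 0.24), with an adjusted p of 0.999 with edgeR for each. That score was 1.89, -4.93 and -0.44 in NECA, against 3.39, 3.50 and 0.16 in DMSO, so it ran partly with treatment. It includes Ada and Pdx1, which were lower in every NECA library than in every DMSO library. The fit thus cannot separate bowel position from treatment, and the part of position in these levels was not tested.

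Other tissue markers differed in NECA replicate 2 as well. The 10 enterocyte markers summed to 14886, 12540 and 15530 CPM in NECA, against 14107, 14309 and 15103 CPM in DMSO, so NECA replicate 2 was lowest by a small amount. The list was uneven there, with 7 of the 10 markers highest and 3, Alpi, Fabp2 and Cdhr2, lowest in that library. The fatty acid binding protein Fabp2 was at 603 CPM, against 3318 to 4968 CPM in the other libraries. The keratin Krt8 was at 2572 CPM, against 883 to 1403 CPM. For the label intestine, all 10 were above 1 CPM in every library. The 9 proliferation markers summed to 807, 1627 and 800 CPM in NECA, against 718, 803 and 930 CPM in DMSO, all 9 being highest in NECA replicate 2, the library with the highest Tfrc. The 9 erythroid markers, of cells that carry much Tfrc, summed to 532, 201 and 692 CPM in NECA, against 543, 672 and 339 CPM in DMSO, lowest where Tfrc was highest. The 12 macrophage markers, of cells that export iron through Slc40a1, summed to 725, 325 and 712 CPM in NECA, against 697, 619 and 793 CPM in DMSO, with 1 of them, Vsig4, at 0 in every library. Of the 11 tested, 10 had a negative log2 fold change, and the groups did not overlap in 3, Cd68, Mrc1 and Cx3cr1, all lower in NECA like Slc40a1. Over all 15847 genes tested, 8083 had a negative fold change and 7.16% did not overlap in that direction. With NECA replicate 2 left out, 9 of the 11 were lower, with a median of -0.31. The low sum in NECA replicate 2 came mostly from Csf1r, at 110 CPM there against 292 to 455 CPM elsewhere. The 6 pancreas markers summed to 74.2, 0.997 and 74.6 CPM in NECA, against 37.3, 20.1 and 58.4 CPM in DMSO, again lowest in NECA replicate 2. That sum was almost all Ctrb1, at 73.8, 0.349 and 74.0 CPM in NECA, against 34.9, 20.0 and 57.7 CPM in DMSO. Cpb1 was not lowest in NECA replicate 2, at 0.648 CPM against 0.0669 to 1.56 CPM elsewhere. Cpa1, Cela2a, Pnlip and Cel had 0 to 6 counts per library. The 6 smooth muscle markers summed to 2656, 2522 and 2749 CPM in NECA, against 2983, 5713 and 2264 CPM in DMSO, highest in DMSO replicate 2. The 5 colon markers summed to 60.6, 28.3 and 67.5 CPM in NECA, against 259, 241 and 82.5 CPM in DMSO. Aqp8 made up most of that sum except in NECA replicate 2. Car1 and Hoxb13 of the colon list had 137 and 28 counts in DMSO replicate 1, against 0 to 2 and 0 counts in the other libraries. The part of these lists in the iron gene levels was not tested.

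**Figure D4:**
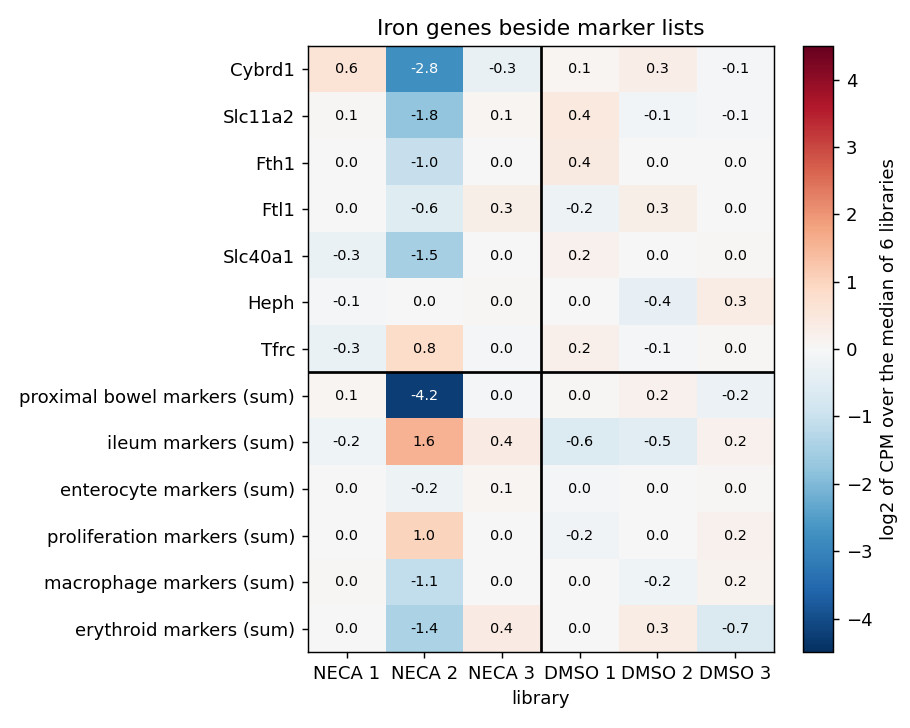
Level of each of the 7 genes and summed level of 6 marker lists in each library, as log2 of CPM over the median of the 6 libraries, NECA libraries left and DMSO libraries right. Cybrd1, Slc11a2, Slc40a1 and Fth1 are lowest in NECA replicate 2, beside the proximal bowel list (333 CPM), while Tfrc is highest there, beside the proliferation list (1627 CPM).

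How alike the 7 genes were to each other depended on NECA replicate 2. Over the 6 libraries the Pearson correlation of log2 CPM was 0.99 between Slc11a2 and Fth1, 0.96 between Slc11a2 and Slc40a1, and 0.93 between Slc11a2 and Cybrd1. Over the 5 libraries left without NECA replicate 2 the same pairs had 0.91, 0.39 and -0.09. Some pairs with Tfrc changed sign, with -0.76 over 6 libraries and 0.96 over 5 for Slc40a1 and Tfrc. The same values were -0.74 and 0.76 for Tfrc and Fth1, and -0.82 and 0.55 for Tfrc and Slc11a2. Other pairs with Tfrc kept their sign, with -0.94 and -0.58 for Cybrd1, -0.82 and -0.38 for Ftl1, and 0.16 and 0.39 for Heph. Slc40a1 and Fth1 had 0.97 over 6 libraries and 0.68 over 5. Pairs without Tfrc changed sign too, with 0.62 and -0.67 for Fth1 and Ftl1, and 0.67 and -0.75 for Slc11a2 and Ftl1. The values were 0.74 and -0.19 for Slc40a1 and Ftl1, and 0.72 and -0.30 for Cybrd1 and Ftl1. Cybrd1 had 0.89 and -0.55 with Slc40a1, and 0.90 and -0.12 with Fth1. Over 6 libraries Heph went with none of the other 6 genes, its correlations lying between -0.21 and 0.16. Over the 5 libraries they lay between -0.54, with Cybrd1, and 0.39, with Tfrc. The points share their libraries and scaling, and 6 points are few. The genes most like each member, among 9706 other named genes of at least 10 CPM, were Atp5c1 and Cpeb4 for Slc11a2 (r of 0.998 and 0.997), Ly6c1 and Ak3 for Fth1 (0.996 and 0.995), and Lrrc57 and Mpc1-ps for Slc40a1 (0.995 and 0.994). For Cybrd1 they were Ndufb5 and Nceh1 (0.9995 and 0.999). They were Fam3a and Fam118a for Ftl1 (0.99), Asph and Zfp787 for Tfrc (0.99), and Cdk14 and Malsu1 for Heph (0.98). Between 47 genes, for Heph, and 781, for Cybrd1, had an r above 0.9, so such likeness was common.

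The wider set of iron and metal genes was described by 7 lists holding 80 genes, of which 72 were tested. None passed the adjusted threshold, 1 was lower and 1 higher at an unadjusted p under 0.05 (against 3.03% and 2.45% of all genes), and the median log2 fold change was 0.0091, with 34 genes lower and 38 higher. Without NECA replicate 2 the median was 0.05, with 26 genes lower and 46 higher, against 8475 lower and 7646 higher of all genes. NECA replicate 2 was the lowest library in 25 and the highest in 18 of the 72. The groups did not overlap in 2 genes lower and 4 higher in NECA (7.16% and 6.49% of all genes tested).

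Flvcr2, a haem or choline transporter, was at 33.3, 25.1 and 36.9 CPM in NECA, against 12.3, 14.6 and 24.4 CPM in DMSO. The groups did not overlap, though NECA replicate 2 lay close to DMSO replicate 3, and the log2 fold change was 0.89 (SE 0.28, adjusted p = 0.738 with edgeR), or 1.04 (SE 0.28) without NECA replicate 2. Tmprss6, a membrane protease that restrains hepcidin in the liver, was at 3.30, 0 and 3.04 CPM in NECA, against 7.59, 16.9 and 9.07 CPM in DMSO. The groups did not overlap at these low levels, and the log2 fold change was -2.42 (SE 0.96, adjusted p = 0.738 with edgeR), or -1.81 (SE 0.38) without NECA replicate 2. The hepcidin genes themselves were close to or at 0, with 0 to 2 Hamp counts per library and 0 Hamp2 counts in all 6, as was the liver-type receptor Tfr2, with 4 to 8 counts.

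Among iron sensors, the iron regulatory protein Aco1 was at 238, 190 and 227 CPM in NECA, against 196, 138 and 191 CPM in DMSO (0.32, SE 0.19, adjusted p = 0.738 with edgeR), and the fold change was 0.41 (SE 0.18) without NECA replicate 2. Only NECA replicate 2 lay within the DMSO range. Pcbp1, an iron chaperone that delivers iron to ferritin, differed by 0.22 (SE 0.19), or 0.09 (SE 0.15) without NECA replicate 2. Of the 8 genes of sensing, chaperoning and ferritin turnover, 4 were lower and 4 higher, with a median of 0.0049, or 0.03 without NECA replicate 2. The oxygen-sensing list, included because hypoxia-inducible factor 2 (Epas1) drives Cybrd1 and Slc11a2 in enterocytes, had 7 of 8 genes higher and a median of 0.20, with and without NECA replicate 2, and none past the threshold. Epas1 itself was at 85.2, 75.5 and 78.5 CPM in NECA, against 107, 79.2 and 77.6 CPM in DMSO, with the groups overlapping. The prolyl hydroxylases Egln3 (0.65, SE 0.29) and Egln2 (0.31, SE 0.16), which mark these factors for destruction, had the smallest p of that list. Egln3 was highest in NECA replicate 2, at 141 CPM against 56.3 to 79.8 CPM in the others, and without that library its fold change was 0.25 (SE 0.15), while that of Egln2 was 0.37 (SE 0.16).

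Apart from Flvcr2 and Tmprss6, no gene of the 7 lists had an unadjusted p under 0.05 with all 6 libraries. Without NECA replicate 2, Steap3, Meltf, Slc39a4, Egln2 and Hif1an were also under 0.05, as were 5.49% of all genes tested. The adjusted p of each of these genes was 0.848 with edgeR. Of the reductases and importers, 6 of 8 were lower, with a median of -0.19, and without NECA replicate 2 4 of 8, with the same median. The reductase Steap4 was at 2.65, 4.44 and 1.49 CPM in NECA, against 33.8, 3.41 and 2.25 CPM in DMSO, so that its fold of -2.20 (SE 1.0) rests on DMSO replicate 1. Slc11a1, the phagosomal relative of Slc11a2, differed by -0.50 (SE 0.22), or -0.42 (SE 0.24) without NECA replicate 2. The mitochondrial and iron-sulfur cluster list had 7 of 14 genes lower, with a median of -0.0036, led by Sfxn1 (0.38, SE 0.19) and the cluster assembly gene Isca1 (-0.40, SE 0.20). That median was 0.01 without NECA replicate 2, and Sfxn1 differed by 0.21 (SE 0.16) and Isca1 by -0.28 (SE 0.20). The list of copper, zinc and other metals had 5 of 8 genes lower, with a median of -0.04, led by the zinc importer Slc39a5 (0.33, SE 0.18) and the manganese exporter Slc30a10 (-0.39, SE 0.28). The direction of the list turned without NECA replicate 2, with 3 of 8 genes lower and a median of 0.18, and Slc39a5 differed by 0.28 (SE 0.18) and Slc30a10 by -0.15 (SE 0.23). The haem list had 7 of 17 genes lower, with a median of 0.02, and the transferrin, ferroxidase and hepcidin list 4 of 9, with a median of 0.03. Without NECA replicate 2 these medians were 0.06 and 0.01.

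**Figure D5:**
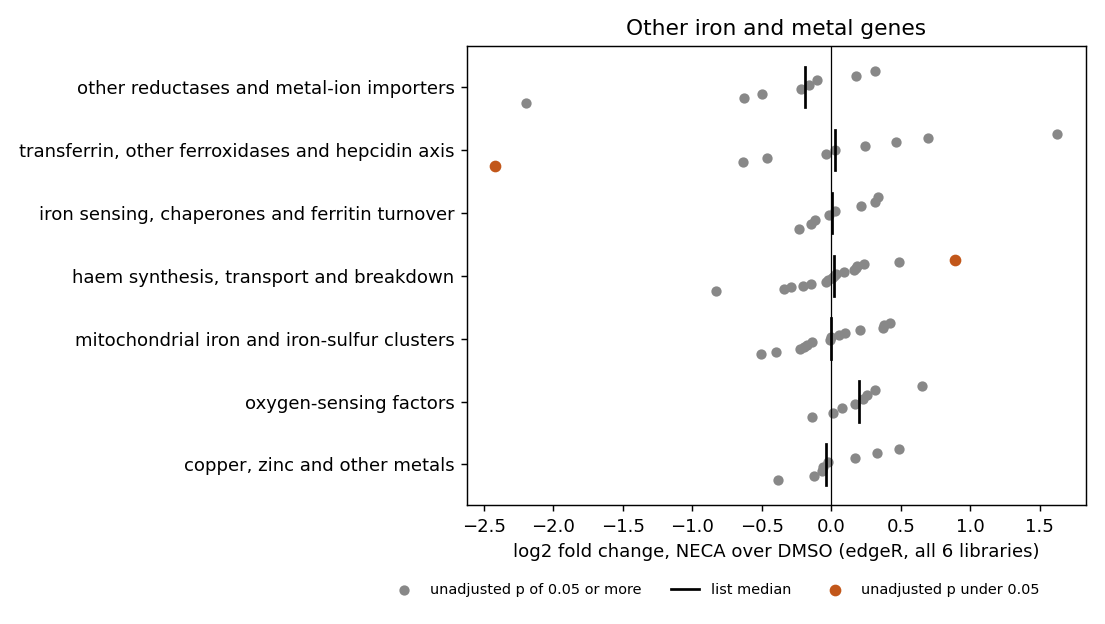
Log2 fold change of NECA over DMSO (edgeR, all 6 libraries) for the 72 tested genes of 7 other iron and metal lists, 1 point per gene, with the black line the list median. The points lie on both sides of 0, and the 2 coloured points with an unadjusted p under 0.05 are Tmprss6 (-2.42) and Flvcr2 (0.89).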

How the data were processed

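The deposited tables hold unnormalized read counts (whole numbers) and FPKM for every gene and library, per the file headers. The submitters' processing notes name the tools HISAT, StringTie and edgeR, and as builds GRCm38 and mm10. Their versions, strandedness and handling of multi-mapping reads: not given in the sources used here. Per the labels' protocols, cDNA was made with SMARTer chemistry and amplified by PCR, so reads are not independent molecules. Low counts were removed (edgeR 4.0.16, filterByExpr, at least 10 counts and 15 in total), and the rest scaled with TMM and tested with the quasi-likelihood test in R 4.3.3, NECA against DMSO, without covariates, at an adjusted p threshold of 0.05. Each SE is the fold change divided by the root of F. FPKM served to compare genes and, with limma 3.58.1, as an alternative. DESeq2 1.42.0 was another. The scripts were tested on simulated data. The 7 genes, the gene lists and the naming rule (all 7 genes; in each list the genes with an unadjusted p under 0.05 or the 2 with the smallest p; the 2 genes most correlated with each member) were chosen with earlier results of these data known. No pairing by replicate number was seen, the correlations of same-numbered deviations from the group mean being 0.0087, -0.19 and -0.02. With 3 libraries per group this check cannot exclude a pairing.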

Additional observations from a re-analysis of the deposited data

How the results depend on the processing

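None of the 7 genes passed the threshold under any alternative run. Genes called numbered 0 under other scalings, the 5 CPM filter, robust dispersions, limma on FPKM, the position score and each library left out. They numbered 2 without the low-count filter, 9 with DESeq2 and 30 with DESeq2 without NECA replicate 2, an alternative chosen after seeing the data; the cause was not tested. Signs turned for Heph with library totals only (0.0065), and with the position score for Slc11a2 (0.19), Cybrd1 (0.40), Tfrc (-0.38), Fth1 (0.015) and Ftl1 (0.13). DESeq2 without NECA replicate 2 turned Cybrd1 (0.12), Tfrc (-0.22) and Ftl1 (0.11). Leaving out 1 library at a time, fold changes ran from -1.20 to 0.11 for Cybrd1, -0.68 to -0.03 for Slc11a2, -0.58 to -0.13 for Fth1, -0.31 to 0.10 for Ftl1, -0.86 to -0.24 for Slc40a1, -0.21 to 0.14 for Heph and -0.23 to 0.39 for Tfrc, and the ferritin ratio difference from -0.52 to -0.09. A replicate block gave 0 calls (628 genes at an unadjusted p under 0.05) and changed no call. It gave Cybrd1 -0.83, Tfrc 0.10 and Heph -0.02, and limma on log2 FPKM gave Cybrd1 -0.77 (pseudocount 1) and -0.89 (0.1) and Tfrc 0.11 with either. With 3 libraries per group, 1 of which stood apart, the intervals remain wide.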

Other observations

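Among the other iron genes, Slc46a1 and Flvcr1 had, after Tmprss6, the lowest level in NECA replicate 2 relative to the other libraries, and they and Meltf are named after their values were seen. Slc46a1, a transporter of folate and haem at the apical membrane of the proximal bowel, was at 136, 9.47 and 106 CPM in NECA, against 172, 173 and 101 CPM in DMSO. Flvcr1, a choline and haem exporter, was at 162, 21.9 and 134 CPM in NECA, against 108, 132 and 126 CPM in DMSO. In both genes NECA replicate 2 lay below every other library. The other NECA libraries lay within the DMSO range for Slc46a1 and above it for Flvcr1, and without NECA replicate 2 the log2 fold changes were -0.29 (SE 0.25) and 0.28 (SE 0.15), against -0.83 (SE 0.76) and -0.20 (SE 0.59) with all libraries. Meltf (melanotransferrin), a membrane-anchored relative of transferrin, was at 2776, 1936 and 3136 CPM in NECA, against 927, 1346 and 2563 CPM in DMSO. DMSO replicates 1 and 2 were the lowest libraries, and DMSO replicate 3 lay within the NECA range (log2 fold change 0.70, SE 0.41, adjusted p = 0.738 with edgeR, and 0.88, SE 0.38, without NECA replicate 2).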
